A study of Mus musculus with 8 samples.

Results

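The 10 genes described here are Atf4, Atf5, Ddit3, Trib3, Chac1, Sesn2, Asns, Phgdh, Psat1 and Shmt2, which belong to the integrated stress response and to the serine synthesis pathway that this response controls. They were picked by symbol from a table of read counts that lists 54532 genes. The 10 symbols took 11 entries, because Ddit3 is listed under a further identifier (ENSMUSG00000116429) with 0 counts in all libraries, and that entry was not tested. All 10 genes were among the 12911 genes with enough reads to be tested. RNA had been sequenced from bone marrow-derived macrophages (BMDMs), macrophages that grow out of marrow cultured with the growth factor M-CSF, after 6 days of differentiation and with no treatment. The 4 WT libraries came from C57BL/6J female mice of 6 to 8 weeks, as the study describes its BMDM cultures, and the 4 Gsdmd-/- libraries came from mice that lack gasdermin D, the pore-forming protein of pyroptosis. The WT mice were bought from a supplier, whereas the Gsdmd-/- mice were a gifted line kept in the university's animal facility, so genotype and origin of the mice cannot be told apart. The age and sex of the Gsdmd-/- mice used for sequencing are not given in the sources used here, and nothing says that each library came from a separate mouse, so the p-values measure the spread between libraries, which may be technical.

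The integrated stress response begins when a kinase senses a stress and phosphorylates the translation initiation factor eIF2. Perk senses unfolded protein in the endoplasmic reticulum, Gcn2 a lack of amino acids, PKR double-stranded RNA and HRI a lack of heme or mitochondrial stress. Most translation then slows, while the mRNA of the transcription factor ATF4 is translated more, and ATF4 raises the transcription of genes for amino acid synthesis, amino acid import, tRNA charging and, under lasting stress, cell death. The serine pathway runs from a glycolytic intermediate through Phgdh, Psat1 and Psph to serine, and Shmt2 turns serine into glycine and a folate-bound carbon unit in mitochondria. In macrophages this pathway is known for feeding glutathione and nucleotide synthesis. As ATF4 is controlled mainly at the level of translation, mRNA counts show the level of its transcript and of its targets and do not measure eIF2 phosphorylation or ATF4 protein.

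Gsdmd, the deleted gene, stood at 63.5 to 95.5 CPM (reads of the gene, rescaled so that libraries of unequal depth can be compared) in the WT libraries and at 14.4 to 18.2 CPM in the Gsdmd-/- libraries, with a log2 fold change (Gsdmd-/- minus WT) of -2.22 and an adjusted p of 4.665e-05 by the quasi-likelihood test of edgeR, which gives every p below unless another tool is named. Total counts ranged from 14935114 to 16794810 per library, and 3 counts, the most that a count of 0 allows, equal 0.177 to 0.199 CPM. WT 2 and WT 3 stood apart from the other 6 libraries on the first principal component, which held 43.6% of the variance, with scores of 45.4 and 38.8 against -25.9 to -7.19. The macrophage markers Csf1r, Adgre1, Cd68, Cd14, Mertk, Fcgr1, Itgam and Lyz2 were all tested, and their summed level was 15340.2 to 23464 CPM in WT and 19408 to 23404 CPM in Gsdmd-/- libraries, with WT 2 and WT 3 lowest at 15340.2 and 17239 CPM. Most of that sum was Lyz2, the lysozyme gene, at 12999 to 20757 CPM. Within WT, WT 2 and WT 3 were the lowest pair for Lyz2, Csf1r, Cd68, Cd14, Fcgr1 and Itgam and the highest pair for Mertk (249.6 and 212 CPM) and Adgre1 (319 and 326 CPM). Adgre1, which encodes F4/80, was the only one of the 8 at an unadjusted p under 0.05 with all 8 libraries, at 277 to 326 CPM in WT and 242 to 275 CPM in Gsdmd-/- libraries, without overlap (log2 fold change -0.24, unadjusted p = 0.0182, adjusted p = 0.31), and it was at -0.14 without WT 2 and WT 3 (unadjusted p = 0.145). Fcgr1, an IgG receptor, differed by -0.08 on the log2 scale (adjusted p = 0.967), and by -0.85 without WT 2 and WT 3 (adjusted p = 0.032). In that setting Csf1r was at -0.35 (unadjusted p = 0.00321) and Cd14 at -0.40 (unadjusted p = 0.0255), against -0.15 and -0.09 with all libraries. Single markers given with fold changes here were named after their values were seen. The 8 proliferation markers summed to 397 CPM in WT 2 and 409 CPM in WT 3, and to 299 to 399 CPM in the other 6 libraries. All 8 of them had a log2 fold change above 0 without WT 2 and WT 3, with Ccnb1 (0.80, unadjusted p = 0.00623) and Birc5 (0.76, unadjusted p = 0.0123) at the study's cutoff, which is given below, and Top2a (0.33, unadjusted p = 0.0309) and Mcm5 (0.27, unadjusted p = 0.0256) at an unadjusted p under 0.05. With all 8 libraries these 4 stood at 0.22, 0.15, -0.13 and 0.05. Markers of other cells were low: neutrophil markers summed to 4.63 to 6.98 CPM with Ly6g at 0, lymphoid markers to at most 0.669 CPM, stromal markers to at most 3.04 CPM with Lum at 0, and erythroid and megakaryocyte markers to at most 29.5 CPM with Hba-a1 and Hbb-bs at 0. In the libraries without WT 2 and WT 3, Pf4 of the last list (-0.57) and Pdgfra of the stromal list (1.53) were at the study's cutoff. Mast cell and basophil markers were led by Gata2, at 4.03 to 8.64 CPM. Endothelial markers summed to 27.8 to 69.4 CPM in WT and 48.6 to 80.9 CPM in Gsdmd-/- libraries, with Tek at 0. Most of that sum was Kdr, a VEGF receptor, which had 65.6, 23.6, 21.1 and 54.8 CPM in WT 1 to 4 and 75.1, 77.8, 44.1 and 56.9 CPM in Gsdmd-/- 1 to 4. The ranges of Kdr overlapped, with WT 2 and WT 3 lowest, and its log2 fold change was 0.62 (adjusted p = 0.535), or 0.07 without WT 2 and WT 3 (adjusted p = 0.938). Cdh5, the endothelial cadherin, was lower in Gsdmd-/- at that cutoff (log2 fold change -0.51), but not without WT 2 and WT 3 (-0.38, unadjusted p = 0.182). The part that these differences play in the results below was not tested, and many of the values are given without WT 2 and WT 3 as well. That setting sets only WT 1 and WT 4 against the 4 Gsdmd-/- libraries. WT 2 and WT 3 were picked with these data known, and leaving them out can narrow the spread within WT. The p-values of that setting, adjusted or not, therefore describe the remaining libraries and do not test a difference.

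Of the 10 genes, 9 had a log2 fold change above 0, where 48.5% of all genes tested did, and Ddit3 was the exception. The median of the 10 was 0.18 and their range -0.04 to 0.77, against a median of -0.00685 over all genes tested and a median size, regardless of sign, of 0.14. By edgeR with Benjamini-Hochberg adjustment, an adjusted p under 0.05 was reached by 0 of the 10, and by 45 of all 12911 genes tested (0.349%, with 0.139% higher and 0.209% lower in Gsdmd-/-). At an unadjusted p under 0.05 there were 3 genes, Atf4, Trib3 and Chac1, all higher in Gsdmd-/- BMDMs, as were 4.74% of all genes tested. At an adjusted p under 0.05, DESeq2 called 1 of the 10, Trib3, and limma voom called 0. Over the whole table, the 6 other tools and filters tried with 8 libraries called 25 to 292 genes at that threshold, with DESeq2 at 292. At the cutoff used in the study (unadjusted p under 0.05 and log2 fold change at or beyond 0.5 in either direction), 2 genes, Trib3 and Chac1, were higher in Gsdmd-/- and 0 were lower, while 1.54% of all genes tested were higher and 3.28% lower at this cutoff. That split over all genes, 199 higher and 424 lower, became 405 higher and 418 lower without WT 2 and WT 3, and 239 higher and 320 lower by limma voom. These 2 genes were also the only ones of the 10 whose WT and Gsdmd-/- libraries did not overlap, which held in this direction for 3.48% of all genes tested, in the other for 4.12% and in either for 7.60%. The count of 2 at the study's cutoff, with the same 2 genes, held under all 6 other tools and filters tried with 8 libraries and in each of the 8 analyses that left out 1 library. Bulk RNA does not tell more RNA per cell from more cells that express a gene.

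**Figure D1:**
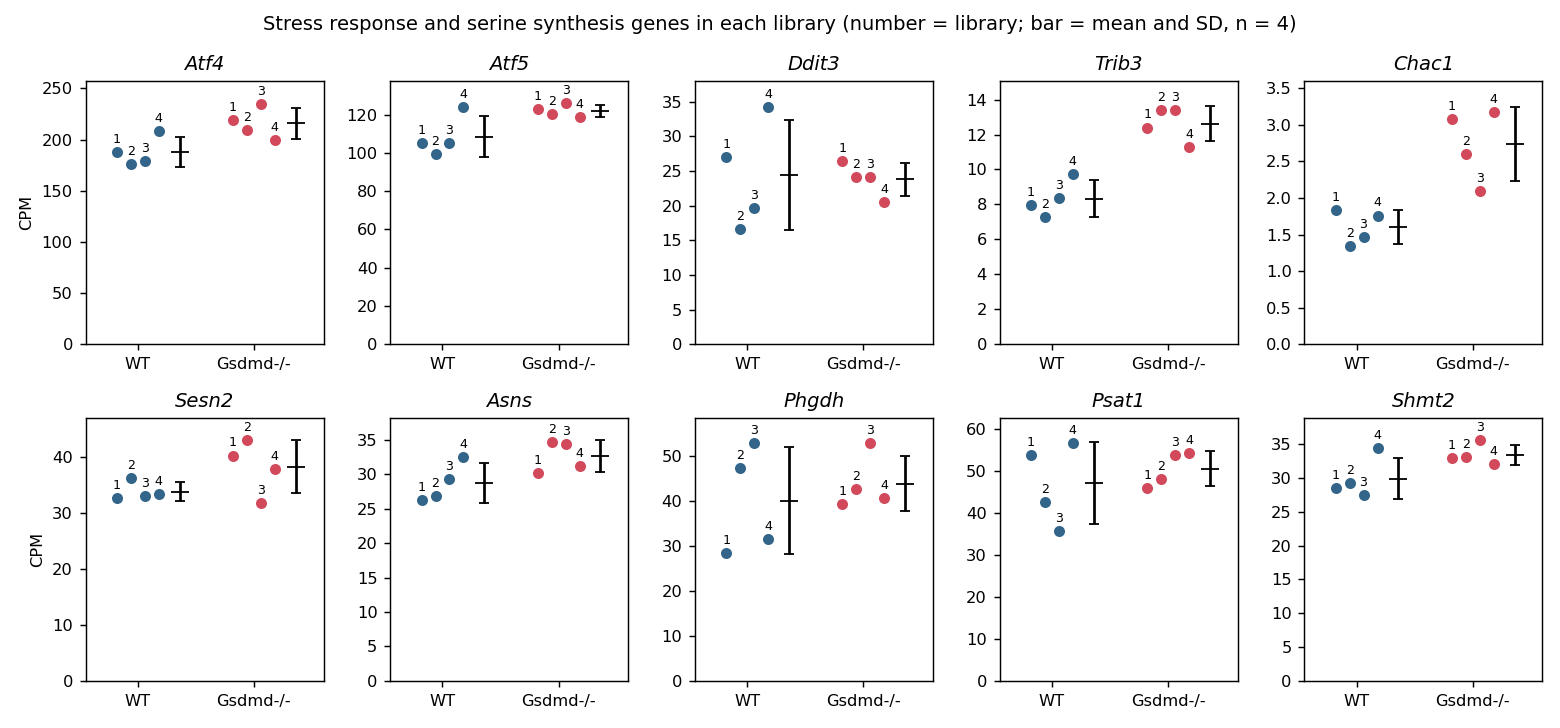
Level of each of the 10 genes in each library, in CPM on a linear axis that starts at 0 (points, WT in blue and Gsdmd-/- in red, with the library number; bar, mean and SD, n = 4 per genotype). Trib3 and Chac1 have every Gsdmd-/- point above every WT point, and in the other 8 panels the points of the genotypes overlap.

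Set side by side per kilobase of exon, the levels of the 10 genes had the same order in both genotypes except where neighbours were closer than their spread. In WT, Atf4 was highest at 79.6 ± 6.23 CPM per kb (SD, n = 4 for all values here), followed by Atf5 at 54.4 ± 5.35. Phgdh (16.1 ± 4.8), Ddit3 (14.3 ± 4.6), Psat1 (11.1 ± 2.31), Asns (10.5 ± 1.04), Sesn2 (9.72 ± 0.476) and Shmt2 (9.63 ± 0.99) came next, and each of these differed from its neighbour by less than their summed SDs. Trib3 at 3.92 ± 0.488 and Chac1 at 0.977 ± 0.142 CPM per kb were the lowest, each separated from the gene above by more than the summed SDs. The 2 genes at the study's cutoff were therefore the least abundant of the 10, with 1366 reads for Trib3 and 282 for Chac1 over all 8 libraries, against 26268 for Atf4.

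Atf4 (ENSMUSG00000042406, chr15:80255184-80257541, all positions on GRCm38) encodes the transcription factor at the centre of the response. Its level in WT 1 to WT 4 was 188, 176, 179 and 208 CPM. In Gsdmd-/- 1 to Gsdmd-/- 4 it was 219, 209.6, 235 and 199.6 CPM. The genotypes overlapped, since WT 4 lay above Gsdmd-/- 4, and the other 3 WT libraries lay below all 4 Gsdmd-/- libraries. The means were 188 ± 14.7 and 216 ± 14.8 CPM (SD, n = 4), the log2 fold change was 0.20 (SE 0.087, 95% interval 0.01 to 0.39), and the unadjusted p of 0.0438 became 0.396 after adjustment. Without WT 2 and WT 3, the lowest WT libraries, the difference was 0.12 with an adjusted p of 0.705.

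Atf5 (ENSMUSG00000038539, chr7:44812256-44816658) encodes a related factor that is likewise translated under eIF2 phosphorylation and is known for the mitochondrial branch of the stress response. It stood at 105, 99.5, 105 and 124 CPM in WT 1 to WT 4 and at 123, 120.5, 126 and 119 CPM in Gsdmd-/- 1 to 4. The picture was that of Atf4: WT 4 lay among the Gsdmd-/- libraries and the other WT libraries lay below them. Between the genotypes Atf5 differed by a log2 fold change of 0.17 (SE 0.0851, 95% interval -0.02 to 0.36, adjusted p = 0.468), which was 0.09 without WT 2 and WT 3. The exons of Atf5 share 82 bases (4.11%) with Nup62, which lies on the opposite strand, and the kit did not mark strand, so reads in that stretch cannot be assigned.

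Ddit3 (ENSMUSG00000025408, chr10:127290774-127296288), whose product CHOP promotes cell death in lasting stress, was the only one of the 10 genes with a negative value. The WT libraries spread from 16.7 CPM in WT 2 and 19.6 in WT 3 to 27.1 in WT 1 and 34.3 in WT 4. The Gsdmd-/- libraries, at 26.4, 24.1, 24.2 and 20.6 CPM, all lay inside that range. The log2 fold change was -0.04 (SE 0.202, 95% interval -0.49 to 0.41, adjusted p = 0.959), and its sign turned with the choice of libraries: it was 0.17 without WT 4, 0.02 without WT 1, 0.03 without Gsdmd-/- 4, and -0.37 without WT 2 and WT 3 (unadjusted p = 0.0197, adjusted p = 0.253). Ddit3 shares 68 exon bases (3.97%) with Mars, which lies on the opposite strand and had 5660 counts. The entry with 0 counts shares 105 bases (6.13%) of Ddit3 on the same strand.

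Trib3 encodes a pseudokinase that is induced by ATF4 and CHOP and in turn restrains them, and Chac1 encodes an enzyme that degrades glutathione and is induced late in the response. Their promoters are shown because these 2 genes were the ones at the study's cutoff, and that of Asns, the asparagine synthetase gene whose promoter is a textbook target of ATF4, because it was the only other one of the 10 with the same motif. The motif searched was TGATGNAA, or TTNCATCA on the other strand, a form of the composite element to which ATF4 binds together with C/EBP factors. Each window runs from 250 bases before to 50 bases after the start of the gene and comes from RefSeq on GRCm38.p6, written along the gene's strand with the motif in capitals. It was found in 3 of the 10 genes, which have 12 windows in all, and in 1304 of 32851 windows of the same length over all genes (3.97%). TGACGTCA, the cyclic AMP response element, was found in 0 of the 10 genes and in 588 windows (1.79%). A match is a description of these letters and says nothing of binding in these cells, and no match says only that these letters are not in this window. Starts here are those of RefSeq, which for these 3 genes differ from the ends of the GENCODE genes printed with them. For Trib3 (chr2:152344011-152344310, minus strand) the motif lies 14 bases after the start, for Chac1 (chr2:119350992-119351291, plus strand) 193 bases before it, and for Asns (chr6:7693160-7693459, minus strand) 23 bases before it. The RefSeq starts are at 152344060 for Trib3, 119351242 for Chac1 and 7693209 for Asns, where GENCODE begins these genes at 152344032, 119351229 and 7693254. Against the GENCODE genes the motif of Trib3, at 152344039 to 152344046, therefore lies before the start and that of Asns, at 7693225 to 7693232, lies inside the gene, while that of Chac1 lies before the start in both.
Trib3: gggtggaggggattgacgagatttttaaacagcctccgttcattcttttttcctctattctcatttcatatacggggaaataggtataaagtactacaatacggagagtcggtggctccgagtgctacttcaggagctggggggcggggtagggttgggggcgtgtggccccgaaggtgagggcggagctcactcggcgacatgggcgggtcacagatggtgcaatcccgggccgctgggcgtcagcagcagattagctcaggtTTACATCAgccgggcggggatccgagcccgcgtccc
Chac1: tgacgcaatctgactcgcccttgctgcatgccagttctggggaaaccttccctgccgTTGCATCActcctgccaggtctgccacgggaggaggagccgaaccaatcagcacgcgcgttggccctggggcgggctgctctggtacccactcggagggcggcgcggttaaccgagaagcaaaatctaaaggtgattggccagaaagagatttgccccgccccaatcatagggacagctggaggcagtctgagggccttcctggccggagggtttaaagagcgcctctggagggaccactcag
Asns: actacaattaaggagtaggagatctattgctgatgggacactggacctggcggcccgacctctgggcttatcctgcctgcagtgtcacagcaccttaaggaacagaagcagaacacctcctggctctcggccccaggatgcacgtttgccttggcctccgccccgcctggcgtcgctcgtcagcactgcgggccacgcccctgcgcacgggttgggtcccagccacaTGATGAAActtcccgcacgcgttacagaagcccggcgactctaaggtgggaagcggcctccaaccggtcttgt

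Trib3 (ENSMUSG00000032715, chr2:152337422-152344032) had 131, 119, 137 and 160 reads in WT 1 to WT 4, which is 7.97, 7.27, 8.37 and 9.74 CPM. In Gsdmd-/- 1 to 4 it had 210, 226, 212 and 171 reads, or 12.4, 13.4, 13.4 and 11.3 CPM. All 4 Gsdmd-/- libraries lay above all 4 WT libraries. The mean was 8.34 ± 1.04 CPM in WT and 12.6 ± 0.983 CPM in Gsdmd-/- (SD, n = 4), a fold of 1.52 (95% interval 1.25 to 1.84) and a log2 fold change of 0.60 (SE 0.126), which passed the study's cutoff with an unadjusted p of 7.122e-04 and had an adjusted p of 0.0971. Its adjusted p was 0.00431 by DESeq2 on the same genes, 0.0475 without WT 4, and up to 0.333 when another library was left out. The size was steadier than the p, at 0.54 to 0.69 when 1 library was left out and 0.51 without WT 2 and WT 3.

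Chac1 (ENSMUSG00000027313, chr2:119351229-119354381) was the gene of the 10 with the largest difference and the fewest reads. It had 30, 22, 24 and 29 reads in WT 1 to WT 4, or 1.83, 1.34, 1.47 and 1.76 CPM. In Gsdmd-/- 1 to 4 it had 52, 44, 33 and 48 reads, or 3.08, 2.6, 2.09 and 3.18 CPM. The genotypes did not overlap, and Gsdmd-/- 3 was nearest to WT. The mean was 1.6 ± 0.232 CPM in WT and 2.74 ± 0.5 CPM in Gsdmd-/- (SD, n = 4), a fold of 1.71 (95% interval 1.21 to 2.41) and a log2 fold change of 0.77 (SE 0.224), past the study's cutoff at an unadjusted p of 0.00598 and with an adjusted p of 0.221. Without WT 2 and WT 3, the 2 lowest libraries, it was 0.60 with an adjusted p of 0.363. Chac2, the related enzyme that acts at a steady rate, had 4.92 CPM in WT and 5.06 CPM in Gsdmd-/-, a log2 fold change of 0.04 (adjusted p = 0.947), or -0.08 without WT 2 and WT 3.

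Sesn2 (ENSMUSG00000028893, chr4:132492032-132510501) encodes sestrin 2, a leucine sensor that holds back mTORC1 and is induced by ATF4. It had 32.7, 36.2, 32.9 and 33.3 CPM in WT 1 to 4 and 40.2, 42.9, 31.8 and 37.8 CPM in Gsdmd-/- 1 to 4. In all, 3 of the Gsdmd-/- libraries lay above every WT library and Gsdmd-/- 3 lay below them all. For Sesn2 the log2 fold change was 0.18 (SE 0.103, 95% interval -0.05 to 0.41, adjusted p = 0.548), and it lay between 0.11 (without Gsdmd-/- 2) and 0.26 (without Gsdmd-/- 3) when 1 library was left out. Its relatives Sesn1 and Sesn3 each had a log2 fold change of 0.27, with adjusted p-values of 0.541 and 0.711. Both were highest in WT 2 and WT 3 among the WT libraries. Sesn1 had 27.2, 41.6, 41.2 and 27.1 CPM in WT 1 to 4 and 37.5 to 43.7 CPM in Gsdmd-/- libraries, and without WT 2 and WT 3 it was higher in Gsdmd-/- by 0.60 on the log2 scale (adjusted p = 0.0272). Sesn3 had 5.05, 8.74, 7.88 and 3.96 CPM in WT 1 to 4 and 5.96 to 8.82 CPM in Gsdmd-/- libraries, and without WT 2 and WT 3 it was at 0.78 (unadjusted p = 0.00392, adjusted p = 0.127), past the study's cutoff.

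Asns (ENSMUSG00000029752, chr6:7675169-7693254) makes asparagine from aspartate and glutamine. The WT libraries had 26.2, 26.8, 29.3 and 32.5 CPM and the Gsdmd-/- libraries 30.1, 34.7, 34.4 and 31.2 CPM. WT 4 lay above 2 of the Gsdmd-/- libraries and the other WT libraries lay below all 4. The fitted log2 fold change was 0.18 (SE 0.0989, 95% interval -0.04 to 0.40, adjusted p = 0.515). In Asns, WT 1, WT 2 and WT 3 thus lay below every Gsdmd-/- library and WT 4 did not. This arrangement was seen in the values of Atf4, Atf5, Asns and Shmt2, and 5.16% of all genes tested had it. The arrangement was named after these values were seen. Its share of all genes therefore gives no test of an excess among the genes described here.

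Of the serine enzymes, Phgdh (ENSMUSG00000053398, chr3:98313170-98339990) catalyses the committed step. Its WT libraries fell into a low pair, WT 1 and WT 4 at 28.4 and 31.5 CPM, and a high pair, WT 2 and WT 3 at 47.4 and 52.8 CPM. The Gsdmd-/- libraries, at 39.3, 42.6, 52.9 and 40.6 CPM, lay between these pairs or beside the high one. The log2 fold change was 0.13 (SE 0.195, 95% interval -0.30 to 0.57, adjusted p = 0.833), it was -0.00267 without WT 1, and it was 0.55 without WT 2 and WT 3 (unadjusted p = 0.00269, adjusted p = 0.105), which placed Phgdh at the study's cutoff in those 6 libraries. Phgdh was the only one of the 10 genes in which WT 2 and WT 3 were the highest pair of WT libraries, as they were in 29.4% of all genes tested and in the summed proliferation markers, whose part in this value was not tested.

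Psat1 (ENSMUSG00000024640, chr19:15904678-15947337), the aminotransferase that follows Phgdh, had the opposite arrangement. WT 2 and WT 3 were lowest at 42.6 and 35.7 CPM, while WT 1 and WT 4 had 54.0 and 56.7 CPM. The Gsdmd-/- libraries had 46.0, 48.1, 54.0 and 54.3 CPM and lay within the WT range. The log2 fold change of 0.10 (SE 0.143, 95% interval -0.22 to 0.42, adjusted p = 0.827) became -0.01 without WT 3 and -0.13 without WT 2 and WT 3 (adjusted p = 0.679). WT 2 and WT 3 were the lowest pair of WT libraries in 5 of the 10 genes (Atf4, Atf5, Ddit3, Chac1 and Psat1) and in 28.7% of all genes tested. Thus consecutive enzymes of the same pathway were ordered in opposite ways across the WT libraries.

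Shmt2 (ENSMUSG00000025403, chr10:127517123-127522444), the mitochondrial serine hydroxymethyltransferase, had 28.5, 29.3, 27.5 and 34.4 CPM in WT 1 to 4 and 32.9, 33.1, 35.6 and 32.1 CPM in Gsdmd-/- 1 to 4. Only WT 4 reached into the Gsdmd-/- range. Its log2 fold change was 0.16 (SE 0.0946, 95% interval -0.05 to 0.37, adjusted p = 0.558). It was 0.08 without WT 2 and WT 3.

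**Figure D2:**
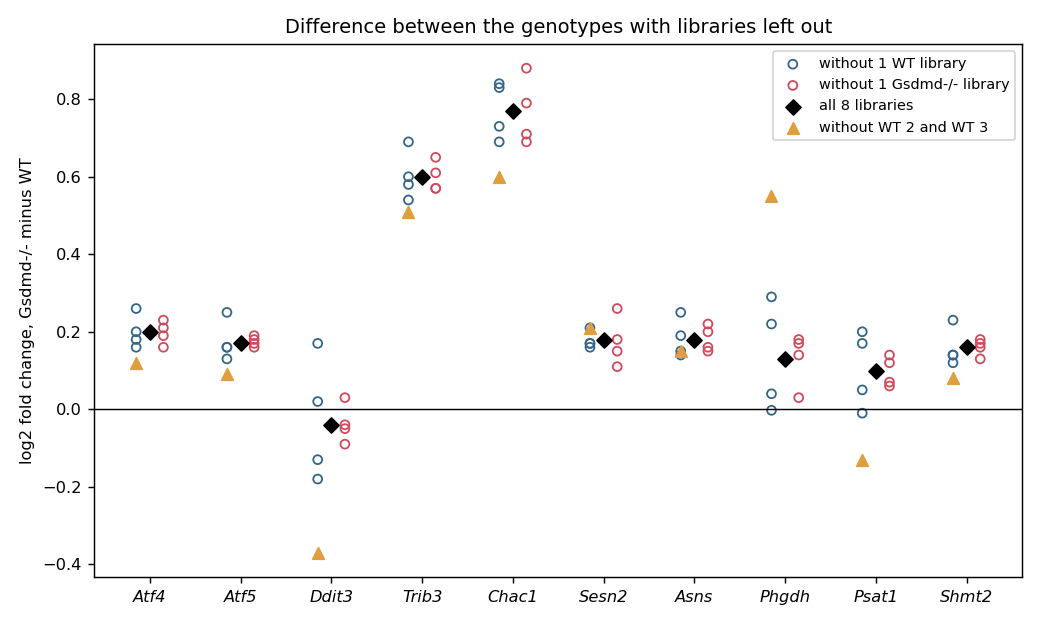
Log2 fold change (Gsdmd-/- minus WT, y axis) of each of the 10 genes with all 8 libraries (diamond), with 1 WT or 1 Gsdmd-/- library left out (open circles, blue and red) and without WT 2 and WT 3 (triangle). Trib3 and Chac1 stay at or above 0.51 throughout, while Ddit3, Phgdh and Psat1 cross 0.

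The other genes of the pathway were taken from lists of 123 genes, of which 113 were tested. Their median log2 fold change was 0.00, with 54 above 0 and 59 below. By edgeR, 0 of the 113 had an adjusted p under 0.05, and 4 were higher and 14 lower at an unadjusted p under 0.05 (4.74% and 7.30% of all genes tested). At the study's cutoff 2 were higher and 4 lower, which is near the shares of all genes tested (1.54% and 3.28%). DESeq2 called 2 of them at an adjusted p under 0.05, Atf3 (lower) and Vegfa (higher), and limma voom 0. Over the whole table DESeq2 called 292 genes at that threshold. The split at the study's cutoff turned with WT 2 and WT 3: without them it was 5 higher (Ddit4, Sesn1, Sesn3, Gdf15 and Vegfa) and 1 lower (Nupr1). By limma voom it was 2 higher and 2 lower. Of the 18 genes at an unadjusted p under 0.05, 6 kept it without WT 2 and WT 3 (Aldh18a1, Atf3, Eif2ak2, Nupr1, Slc38a7 and Vegfa), 12 lost it, and 10 others gained it, so that 7 were then higher and 9 lower. Those that gained it were Ddit4, Dnajb9, Gdf15, Psph, Sesn1 and Sesn3, which were higher, and Eif2b2 (-0.31), Slc7a5, Trib1 (-0.32) and Vars, which were lower. The genes that gained it, Psph apart, were named after their values were seen.

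The kinases and the eIF2 machinery, at the top of the pathway, had a median of 0.00 over 12 genes, 6 above 0 and 6 below. PKR (Eif2ak2) had 37.6 to 50.1 CPM in WT and 30.2 to 39.9 CPM in Gsdmd-/- libraries, a difference of -0.27 on the log2 scale (95% interval -0.53 to -0.01, adjusted p = 0.398), and the ranges overlapped. Perk (Eif2ak3) stood at -0.04 (adjusted p = 0.919) and Gcn2 (Eif2ak4) at -0.17 (adjusted p = 0.665). Among the 6 phosphatase and feedback genes, Ppp1r15a, the Gadd34 subunit that leads the phosphatase back to eIF2 and is itself a target of ATF4, was at 0.05 (54.4 ± 6.53 against 56.1 ± 4.22 CPM, SD, n = 4, adjusted p = 0.899). None of these 18 genes reached the study's cutoff, and 2, Eif2ak2 and Nck1, both lower, had an unadjusted p under 0.05. Nck1, an adaptor that also binds the phosphatase, was named after its value was seen, and was at -0.17 without WT 2 and WT 3 (unadjusted p = 0.225), against -0.29 with all libraries. Eif2ak2 was at -0.26 without WT 2 (unadjusted p = 0.0767) and at -0.35 without WT 2 and WT 3 (unadjusted p = 0.0242).

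Among the partner and relay genes, a list of transcription factors that also holds the mTORC1 inhibitors Ddit4, Sesn1 and Sesn3 and the pseudokinases Trib1 and Trib2, 11 of 12 genes were tested, their median was -0.05, and the 2 at the study's cutoff, Atf3 and Nupr1, were both lower in Gsdmd-/- BMDMs. Without WT 2 and WT 3 there were 4 at this cutoff, of which Sesn1, Sesn3 and Ddit4, none of them a transcription factor, were higher and Nupr1 was lower. Ddit4 had 0.852, 2.44, 2.93 and 1.64 CPM in WT 1 to 4 and 2.22 to 2.6 CPM in Gsdmd-/- libraries. Its log2 fold change was 0.28 (adjusted p = 0.779), and 0.94 without WT 2 and WT 3 (unadjusted p = 0.0128, adjusted p = 0.208). Atf3, a stress-induced repressor that ATF4 activates, had 399.7, 542, 604 and 456 CPM in WT 1 to 4 and 314, 306, 385 and 371 CPM in Gsdmd-/- 1 to 4. The genotypes did not overlap, and the log2 fold change was -0.54 (SE 0.137, unadjusted p = 0.00262, adjusted p = 0.165). It fell short of the study's cutoff without WT 3 (-0.44), without Gsdmd-/- 1, whose value rounds to -0.50, and without Gsdmd-/- 2 (-0.49), was -0.32 without WT 2 and WT 3, and had an adjusted p of 0.0153 by DESeq2. Nupr1, a small stress-induced chromatin protein, had 5.05 to 7.79 CPM in WT and 3.25 to 4.8 CPM in Gsdmd-/- libraries, again without overlap, at -0.61 (SE 0.203, adjusted p = 0.279), and without WT 4 it was -0.47. Cebpb and Cebpg, which pair with ATF4, were at -0.05 (adjusted p = 0.909) and -0.20 (adjusted p = 0.503), and Cebpg was at -0.03 without WT 2 and WT 3. Cebpd, of the same family and named after its value was seen, was at 0.30 with overlap (unadjusted p = 0.0351, adjusted p = 0.374), and at 0.24 without WT 2 (unadjusted p = 0.0951). Trib3 and Chac1, which were higher, and Atf3 and Nupr1, which were lower, passed the study's cutoff in opposite directions. All 4 are known as genes of this response. Atf3 and Nupr1 were among the 4 lower of the 113 pathway genes tested, a count near the 3.28% of all genes tested that were lower at this cutoff.

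Of the amino acid transporters 11 of 12 were tested, with 3 above 0 and 8 below, a median of -0.13 and none at the study's cutoff. At an unadjusted p under 0.05, 3 were lower (Slc7a11, Slc38a7 and Slc25a22) and 1 was higher (Slc1a5). Slc38a7, named like Slc25a22 and Slc1a5 after its value was seen, had 71.3 to 77.9 CPM in WT and 58.1 to 67.7 CPM in Gsdmd-/- libraries, without overlap (log2 fold change -0.24, unadjusted p = 0.00984, adjusted p = 0.262). Slc1a5, a glutamine importer, had 155 to 163 CPM in WT and 168 to 185 CPM in Gsdmd-/- libraries, also without overlap (0.17, unadjusted p = 0.0352, adjusted p = 0.375). Slc25a22, a mitochondrial glutamate carrier, was at -0.18 (adjusted p = 0.415), again without overlap. When WT 2 and WT 3 were left out, Slc38a7 (-0.26) was the only one of these 4 at an unadjusted p under 0.05, while the differences of Slc25a22 (-0.19), Slc1a5 (0.16) and Slc7a11 (-0.23) were of about the size seen with all libraries. Slc7a5, a large neutral amino acid importer, had 41.9, 17.2, 13.3 and 38.2 CPM in WT 1 to 4 and 30.3 to 37.2 CPM in Gsdmd-/- libraries, and its log2 fold change turned from 0.28 to -0.26 without WT 2 and WT 3 (unadjusted p = 0.0394, adjusted p = 0.343). Slc7a11, the cystine importer, had 237 to 286 CPM in WT and 193 to 245 CPM in Gsdmd-/- libraries, a difference of -0.28 on the log2 scale (SE 0.105, unadjusted p = 0.0213, adjusted p = 0.325) with overlap at WT 4. The 18 aminoacyl-tRNA synthetases and export factors, many of which ATF4 controls, lay between -0.15 (Vars) and 0.16 (Rars) with a median of 0.02, and none had an unadjusted p under 0.05. Their median was -0.02 without WT 2 and WT 3, and Vars (-0.27, unadjusted p = 0.0156) was the only one of the 18 at that threshold. The 8 amino acid and redox enzymes tested, of 12, had a median of -0.06, none was at the study's cutoff, and Aldh18a1 and Gpt2 were the 2 at an unadjusted p under 0.05, both lower (named after their values were seen). Gpt2, an alanine aminotransferase, was at -0.42 (unadjusted p = 0.0395), at -0.28 without WT 2 (unadjusted p = 0.123), at -0.34 without WT 3 (unadjusted p = 0.109) and at -0.04 without both (unadjusted p = 0.74). Aldh18a1 was at -0.21 with all libraries, at -0.19 without WT 2 (unadjusted p = 0.0817) and at -0.23 without WT 2 and WT 3 (unadjusted p = 0.0457).

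Among serine, glycine and one-carbon enzymes 16 of 18 were tested, 12 were above 0 and 4 below, and the median was 0.03. Psph, the phosphatase that completes serine synthesis, had 7.18, 9.84, 11.2 and 10.6 CPM in WT 1 to 4 and 11, 10.5, 13.6 and 12.9 CPM in Gsdmd-/- 1 to 4. The ranges overlapped, and the log2 fold change was 0.30 (95% interval -0.05 to 0.65, adjusted p = 0.499). Psph was at 0.18 without WT 1 and at 0.42 without WT 2 and WT 3 (unadjusted p = 0.0449, adjusted p = 0.362). With all 8 libraries the 3 enzymes of serine synthesis, Phgdh, Psat1 and Psph, were thus at 0.13, 0.10 and 0.30 with 95% intervals that held 0, and without WT 2 and WT 3 at 0.55, -0.13 and 0.42, where Phgdh and Psph had an unadjusted p under 0.05. Mthfd2, the mitochondrial folate enzyme that follows Shmt2 and is a target of ATF4, was at 0.10 (adjusted p = 0.773).

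Mthfd1l, which releases formate from mitochondria, had 15.2, 8.55, 8.49 and 15.4 CPM in WT 1 to 4 and 17.7, 16.9, 15.9 and 17.7 CPM in Gsdmd-/- 1 to 4. All Gsdmd-/- libraries lay above all WT libraries, but WT 1 and WT 4 were close to them and WT 2 and WT 3 were far below. The log2 fold change of 0.52 (SE 0.205, adjusted p = 0.359) passed the study's cutoff, and it did so neither without WT 2 (0.38), WT 3 (0.39), Gsdmd-/- 1 (0.50, unadjusted p = 0.0623), Gsdmd-/- 2 (0.52, unadjusted p = 0.0524) or Gsdmd-/- 4 (0.50, unadjusted p = 0.0624) nor without WT 2 and WT 3 together (0.15). Amt, of the glycine cleavage system, was at -0.90 (1.56 ± 0.749 against 0.83 ± 0.135 CPM, SD, n = 4, adjusted p = 0.365), with overlap, and was -0.55 without WT 2 (unadjusted p = 0.131) and -0.27 without WT 2 and WT 3. Its unadjusted p was also above 0.05 without WT 3, Gsdmd-/- 3 or Gsdmd-/- 4, at 0.0623, 0.0764 and 0.0719, with log2 fold changes of -0.87, -0.82 and -0.84.

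Of the 19 endoplasmic reticulum chaperones and genes of the unfolded protein response 3 were above 0 and 16 below, where 48.5% of all genes tested were above 0, and their median was -0.14. None was at the study's cutoff, and Hyou1 and Syvn1, named after their values were seen, were lower at an unadjusted p under 0.05, with log2 fold changes of -0.26 and -0.33. Syvn1 was at -0.23 without WT 2 (unadjusted p = 0.132), at -0.26 without WT 3 (unadjusted p = 0.126) and at -0.04 without both (unadjusted p = 0.716), and Hyou1 was at -0.17 without both (unadjusted p = 0.0921). The median of the 19 was -0.05 without WT 2 and WT 3, with Edem1, Dnajb9 and Ern1 above 0, where with all libraries Edem1, Canx and Pdia4 were. The only one of the 19 at an unadjusted p under 0.05 in that setting was higher: Dnajb9, a cochaperone of BiP, at 0.42 (unadjusted p = 0.004, adjusted p = 0.127), which had 28.4, 49.2, 50.5 and 30.4 CPM in WT 1 to 4 and 37.3 to 45.1 CPM in Gsdmd-/- libraries. Hspa5, the chaperone BiP, had 483 to 665 CPM in WT and 448 to 573 CPM in Gsdmd-/- libraries, a difference of -0.24 on the log2 scale (95% interval -0.50 to 0.02, adjusted p = 0.463), or -0.13 without WT 2 and WT 3. The 9 mitochondrial chaperones and proteases had a median of -0.01, and Lonp1, a mitochondrial protease also named after its value was seen, was the only one at an unadjusted p under 0.05 (-0.25, adjusted p = 0.336), and it was at -0.22 without WT 2 (unadjusted p = 0.0551) and also without WT 3 (unadjusted p = 0.0663).

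Of 5 secreted stress factors 3 were tested. Vegfa, an angiogenic factor that ATF4 can induce, had 8.09, 4.89, 4.15 and 6.88 CPM in WT 1 to 4 and 15.5, 14.8, 8.37 and 11.1 CPM in Gsdmd-/- 1 to 4, without overlap. Its log2 fold change was 1.05 (SE 0.25, unadjusted p = 0.00169, adjusted p = 0.132), 0.73 without WT 2 and WT 3, and the adjusted p was 0.00664 by DESeq2 and 0.0285 with no filter on low counts. Gdf15, a circulating signal of this response, had 19.6, 30.8, 31.6 and 17.8 CPM in WT 1 to 4 and 27.8 to 35.3 CPM in Gsdmd-/- libraries, with overlap at WT 2 and WT 3. Its log2 fold change was 0.38 (adjusted p = 0.471), it passed the study's cutoff without WT 3 (0.51, unadjusted p = 0.0212), and without WT 2 and WT 3 it was higher in Gsdmd-/- by 0.79 on the log2 scale (adjusted p = 0.0196). Angptl4, an inhibitor of lipoprotein lipase, had 11 and 13.4 CPM in WT 2 and WT 3 and between 1.40 and 2.01 CPM in the other 6 libraries, so its log2 fold change of -1.99 (adjusted p = 0.272) was 0.04 without WT 2 and WT 3.

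**Figure D3:**
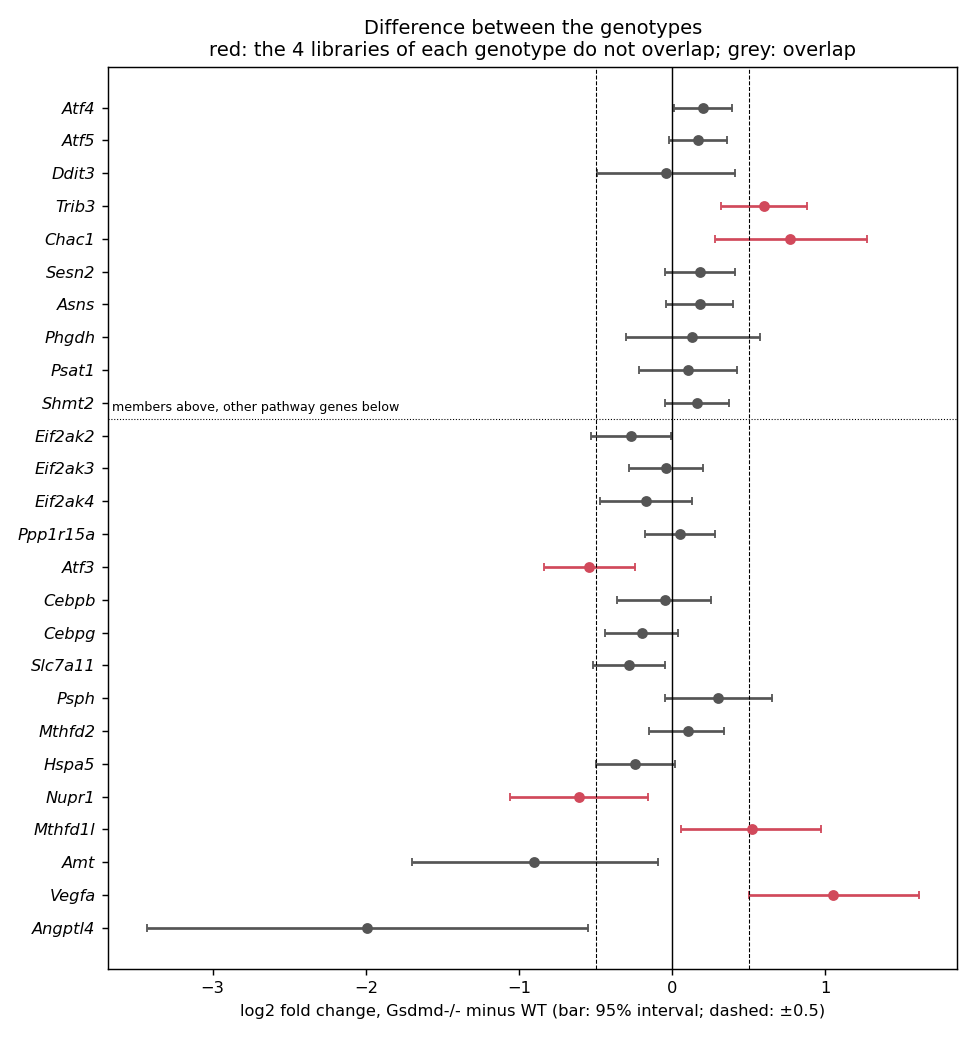
Log2 fold change (Gsdmd-/- minus WT, x axis) of the 10 genes and of 16 other pathway genes, with 95% intervals as bars and dashed lines at 0.5 and -0.5. Genes whose genotypes do not overlap are red: Trib3, Chac1, Mthfd1l and Vegfa to the right of 0, and Atf3 and Nupr1 to the left.

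**Figure D4:**
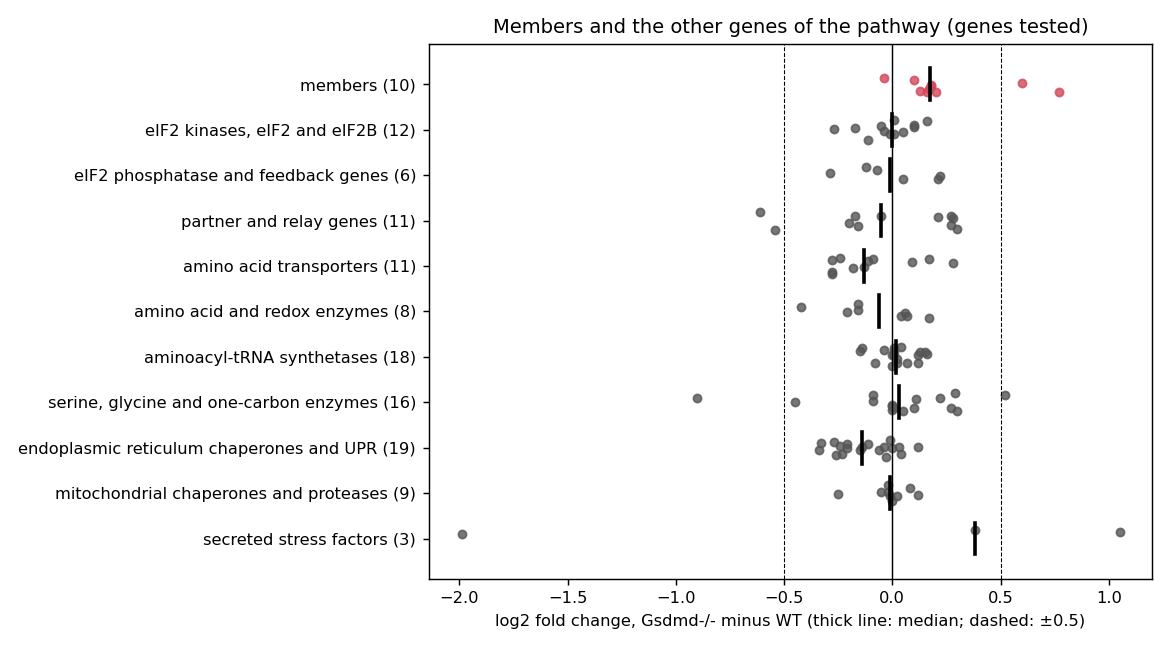
Log2 fold change of each gene tested (points, x axis, dashed lines at 0.5 and -0.5), by list, with the number of genes tested in brackets and the median as a thick line. The median of the 10 genes is at 0.18, and those of the other lists lie between -0.14 and 0.38, the last from 3 secreted factors.

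Dendritic cell markers were the list of another cell type whose summed level did not overlap between the genotypes, at 2211 to 2350.4 CPM in WT and 1657 to 2083 CPM in Gsdmd-/- libraries. Nearly all of it was Itgax, an integrin that cultured macrophages also express (log2 fold change -0.25, adjusted p = 0.337), while Siglech was at 0 in every library. Of the 7 markers 3 were tested, and all 3 were below 0. Beside Itgax these were Zbtb46 (log2 fold change -0.46, unadjusted p = 0.0989) and Cd209a (-0.09, unadjusted p = 0.87), both with overlap. The part of these markers in the values of Trib3 and Chac1 was not tested.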

How the data were processed

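RNA from untreated BMDMs of 4 WT and 4 Gsdmd-/- libraries was extracted with TRIzol, made into TruSeq libraries without strand marks and sequenced by a company. The authors deposited 1 table of raw counts, as whole numbers of reads for each gene and library, to which no normalization had been applied. The submitters' processing notes name the build mm10. The aligner, the counter and the annotation are not given in the sources used here. Each column was matched to 1 library by its label, and 0 columns were left out. Of 54532 genes, 29193 had no count, and 54409 were found by identifier in GENCODE M21 (GRCm38), from which positions and exon lengths were taken.

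Counts were filtered with filterByExpr (12911 genes left), scaled by TMM and compared between genotypes with the two-sided quasi-likelihood test of edgeR 4.0.16 in R 4.3.3, with genotype as the only term and Benjamini-Hochberg adjustment over all genes tested. Calls were made at an adjusted p under 0.05 and at the study's cutoff. CPM use the TMM factors. Levels were set side by side only per kilobase of exon. Total counts were 14935114 to 16794810 per library, and floors of 3 counts cover counting error only. Libraries of the same genotype differed by more than sampling noise, so none was counted as another library sequenced again. This does not show that they came from separate mice. The tests were tested on simulated data before use.

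The named genes were the 10 genes, Gsdmd, every pathway gene at either call, and 11 pathway genes fixed by name (Eif2ak2, Eif2ak3, Eif2ak4, Ppp1r15a, Atf3, Cebpb, Cebpg, Slc7a11, Psph, Mthfd2 and Hspa5). Others are said to have been named after their values were seen, or stand as a relative (Chac2), as the ends of a list's range (Vars, Rars) or as markers. The 10 genes, the pathway and marker lists (macrophage, neutrophil, dendritic, mast cell and basophil, lymphoid, erythroid and megakaryocyte, stromal, endothelial and proliferating cells), the tests and the alternatives were chosen with earlier results of these data known. The alternatives were DESeq2 1.42.0, limma 3.58.1 voom, RLE scaling, a fit with no filter on low counts, a minimum of 10 counts in each library, a block for the replicate number, each library left out in turn, and WT 2 and WT 3 left out together. A further macrophage marker, beside the 8 given, is not reported here. Promoter windows came from RefSeq (GRCm38.p6).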

Additional observations from a re-analysis of the deposited data

Results flagged for a closer look

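In each genotype, the highest and lowest of the 4 libraries were checked for a gap to the nearest other library that, as a share of the whole range, exceeded Dixon's 95% critical value. This was done for the 10 genes and the other named genes, 54 sets of 4 libraries in all, and 3 met it, where chance gives about 1 in 20.

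Sesn2 in WT 2 had 36.2 CPM, while the other WT libraries had 32.7 to 33.3 CPM, a gap of 0.8293 of the range. Eif2ak3 in Gsdmd-/- 1 had 25.1 CPM against 28.2 to 28.5 CPM in the other Gsdmd-/- libraries (0.913 of the range). Mthfd2 in Gsdmd-/- 3 had 67.5 CPM against 59.6 to 60.3 CPM (0.9121 of the range).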

How the results depend on the processing

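The number of genes with an adjusted p under 0.05 over the whole table, 45 by edgeR, was 292 by DESeq2, 109 with no filter on low counts, 161 without WT 2 and WT 3, and 14 to 84 when 1 library was left out (84 without WT 4). At the study's cutoff 623 genes became 1204 with no filter and 469 to 1022 when 1 library was left out (1022 without WT 4). Among the 10 genes the count at this adjusted p was 0 by edgeR, 1 by DESeq2 and 0 to 1 when 1 library was left out, Trib3 in each case. Of the pathway genes it was 2 by DESeq2, 1 with no filter, and 2 without WT 2 and WT 3 (Sesn1 and Gdf15). The log2 fold change of Trib3 was 0.60 by DESeq2 (adjusted p = 0.00431) and 0.54 to 0.69 when 1 library was left out. That of Ddit3 was 0.01 by limma voom and -0.18 to 0.17 when 1 library was left out, that of Phgdh -0.00267 to 0.29, and that of Psat1 -0.01 to 0.20, or -0.13 without WT 2 and WT 3. Without WT 2 and WT 3, Eif2ak3 was at 0.05, Eif2ak4 at 0.02, Mthfd2 at -0.06 and Angptl4 at 0.04, each with the sign turned, and with 1 library left out Eif2ak3 lay at -0.12 to 0.02, Ppp1r15a at -0.03 to 0.10 and Cebpb at -0.16 to 0.05. The cause was not tested. In every setting 8 to 10 of the 10 genes were above 0, with a median of 0.13 to 0.24. The replicate number did not pair the libraries: same-numbered libraries had correlations of their deviations of 0.0268, 0.182, 0.0412 and -0.201, and not every library correlated best with its own number. With the replicate number as a block 25 genes had an adjusted p under 0.05, Ddit3 was at 0.01, and no call among the 10 genes changed. Chac1, with the fewest reads of the 10 genes (282), had the widest 95% interval on the log2 scale, 0.28 to 1.27.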
